A study of Homo sapiens with 8 samples.

Results

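The LSD1 regions described here held called peak summits of RCOR2-KO1 MDA-MB-231 cells and none of the parental cells. The lack of a called summit does not show that LSD1 was absent. Peak summits of the 4 LSD1 CUT&RUN libraries on chromosomes 1 to 22 and X were pooled, and neighboring summits at most 500 bp apart were joined into a region. A region was called KO1-only when it held a summit of both KO1 libraries and of neither parental library. This rule chose 2469 of 68148 regions. The members were thus chosen by the presence of summits in these same 4 lists, so the strength and number of KO1-only regions are given as a description with no test.

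MDA-MB-231 is a human breast cancer cell line. It was maintained in DMEM with fetal bovine serum in both groups, and no other treatment is named in the labels. The groups were parental cells (n = 2 libraries) and cells labeled RCOR2-KO1 (n = 2 libraries), in which RCOR2 was targeted with CRISPR/Cas9, and all 4 libraries were made with the same antibody to LSD1. The methods describe mixing of several knockout clones for another cell line, and whether KO1 MDA-MB-231 cells are 1 clone or a mixture is not given in the sources used here. Differences between the lines that arose while the knockout was made cannot be told apart from the loss of RCOR2. Summit positions do not measure RCOR2, so the knockout itself was not checked. The methods state that CUT&RUN was repeated, with 2 libraries per genotype here, but neither they nor the labels say that the libraries of a genotype came from separate cultures, so p-values measure only the spread between libraries, which may be technical.

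LSD1 is a histone demethylase that removes methyl groups from lysine 4 of histone H3, a mark of active promoters and enhancers. RCOR2 belongs to the CoREST scaffold proteins, which bind LSD1 and the deacetylases HDAC1 and HDAC2 and tether them to nucleosomes to silence genes. The other CoREST proteins, RCOR1 and RCOR3, also carry LSD1. The series addressed whether LSD1 occupancy on chromatin changed when RCOR2 was lost. In CUT&RUN, a nuclease brought in by the antibody cuts the DNA around the bound protein, and the released fragments are sequenced.

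Each library was deposited as a list of summits, the base of highest signal in a peak, with the −log10 of a p or q value from MACS2. The lists held 47354 and 54467 summits in parental cells and 49586 and 50119 in KO1 cells, a difference in the means of -1058 (exact permutation test, two-sided, p = 1, n = 2 per genotype). Because −log10 values grow with sequencing depth, which is unknown here, summits were ranked by percentile, the share of the library's own summits at or below their value, so that the strongest summit of a library is at 100. Coordinates are of hg19, the build named in the submitters' processing notes.

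KO1-only regions made up 3.62% of all regions and 5.80% of the 42571 regions found in both KO1 lists. In the other direction, 2888 regions were found in both parental lists and in neither KO1 list (4.24% of all regions and 6.75% of those in both parental lists). Most regions found in both KO1 lists were also found in both parental lists, namely 35861. A further 3039 were missed by parental replicate 1 alone and 1202 by parental replicate 2 alone. The same count was made for the 2 other ways to split the 4 lists into pairs. By replicate number, 565 regions were found in both replicate 1 lists only and 1405 in both replicate 2 lists only (0.829% and 2.06% of all regions). With the numbers crossed, 614 regions were found in parental replicate 1 and KO1 replicate 2 only, and 1302 in parental replicate 2 and KO1 replicate 1 only (0.901% and 1.91%). The pairs that held parental replicate 2, the longest list, had the larger counts. The split by genotype gave 5357 regions in total, against 1970 and 1916 for the other splits.

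KO1-only regions were mostly weak. Their median percentile was 21.9 in KO1 replicate 1 (quartiles 10.9 and 37.1) and 22.5 in KO1 replicate 2 (quartiles 10.9 and 37.8). Regions of all 4 lists had medians of 61.2 and 61.1 in the same libraries. On the deposited scale, the median −log10 value of KO1-only regions was 7.69 in KO1 replicate 1 and 7.52 in KO1 replicate 2, where the lowest values in the whole lists were 1.34 and 1.33. They therefore lay low in the lists, with medians above the lowest deposited values. How close they lay to the limit of detection cannot be told, because the thresholds of peak calling are not given. In both KO1 lists at once, 1015 of the 2469 (41.1%) were under the 25th percentile and 244 (9.88%) were at or above the 50th. The corresponding shares of the regions of all 4 lists were 5.71% and 55.3%. Regions found in 1 KO1 library alone were weaker still, with medians of 13.1 in the 3277 of KO1 replicate 1 and 14.5 in the 3363 of KO1 replicate 2.

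**Figure D1:**
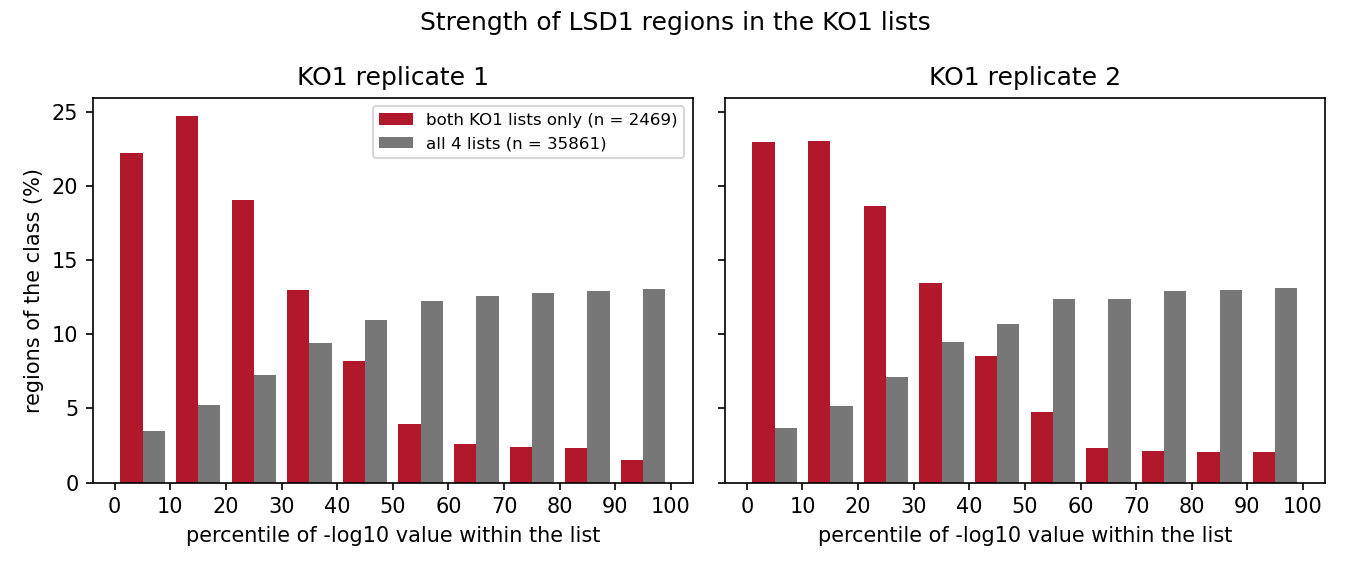
Share of regions (y axis, percent of the class) in each step of 10 percentile points of the −log10 value (x axis) for KO1 replicate 1 (left) and KO1 replicate 2 (right). Red bars are KO1-only regions and gray bars are regions of all 4 lists. In KO1 replicate 1, 22.2% and 24.7% of KO1-only regions fell into the lowest and next steps, against 3.45% and 5.26% of the regions of all 4 lists.

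The share of KO1 regions that lacked a parental summit fell with strength. Among regions in both KO1 lists with a mean percentile of at most 10, 358 of 1306 (27.4%) were KO1-only. The share was 7.20% between percentiles 30 and 40 (333 of 4627) and 1.15% between 60 and 70 (56 of 4888). Above that it hardly fell further, with 0.939% between 90 and 100 (41 of 4366). Regions of both parental lists behaved alike, with 33.5% in the lowest step and 0.956% in the highest lacking a KO1 summit. Regions missed by 1 parental list only lay between the groups in strength. Those missed by parental replicate 1 had medians of 27.1 and 27.8 in the KO1 libraries, and those missed by parental replicate 2 had medians of 32.9 and 33.3.

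**Figure D2:**
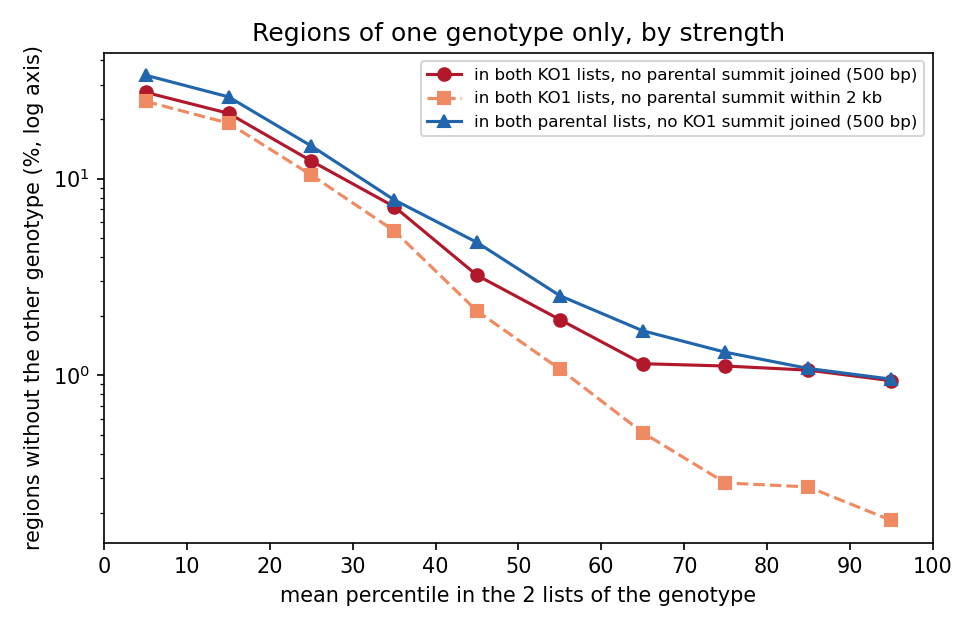
Percent of the regions of 1 genotype that lacked the other genotype (y axis, log axis) against their mean percentile in both lists of that genotype (x axis, steps of 10). Red circles are regions of both KO1 lists with no parental summit joined at 500 bp, orange squares those with no parental summit within 2 kb, and blue triangles regions of both parental lists with no KO1 summit joined. The red line levels off near 1% above percentile 60, whereas the orange line goes on falling to 0.183% in the highest step.

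The rule bears on the spacing of the KO1 summits within a member, because they had to be joined with no parental summit between them, whereas regions of all 4 lists may be linked through parental summits. The spacings are therefore a description. Each of the 2469 regions held exactly 1 summit from each KO1 library. The summits were a median of 44 bp apart (quartiles 19 and 99), and 75.5% were within 100 bp of each other. In regions of all 4 lists, the KO1 summits were also a median of 44 bp apart, with 74.1% within 100 bp. In regions of all 4 lists with a mean KO1 percentile from 13.4 to 33.9, the middle range of the KO1-only regions, the median was 54 bp and 67.2% were within 100 bp. Compared with regions of all 4 lists, the ranks in the KO1 libraries were slightly further apart and less correlated. KO1 replicate 1 gave the higher percentile in 1205 regions and KO1 replicate 2 in 1264. The median absolute difference was 10.4 percentile points, against 9.13 in regions of all 4 lists. Spearman's rho between the KO1 libraries was 0.519 over these 2469 regions (Pearson's r 0.734), against 0.840 over the regions of all 4 lists. The KO1-only regions share the libraries and were required to be present in both. They also span a narrower range of percentiles, which bears on rho. Their quartiles in KO1 replicate 1 were 10.9 and 37.1, against 40.0 and 80.7 for regions of all 4 lists.

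The distance to the nearest parental summit split the KO1-only regions. A parental summit lay within 700 bp of 288 of them (11.7%), just beyond the joining distance, but only 25 more had one between 700 bp and 1 kb. Farther out, 209 had a parental summit between 1 and 2 kb and 1947 (78.9%) had none within 2 kb. Within a single list, neighboring summits this close were rare: 99% of the gaps were above 1849 bp in parental replicate 1 and above 1730 bp in KO1 replicate 2, the largest and smallest of the 4 libraries. Of the 313 KO1-only regions with a parental summit within 1 kb, 181 (57.8%) had as their nearest neighbor a region of both parental lists only. These neighbors had like ranks. The median of the mean percentile was 56.9 for the KO1-only regions and 54.7 for their parental-only neighbors, and the median absolute difference was 8.88 points. The lists give summits without peak widths, so whether the peaks of such neighbors overlapped was not tested.

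Across the joining distance the number of summits fell more than their rank. Among KO1 replicate 1 summits of regions in both KO1 lists, 775 had their nearest parental summit 400 to 500 bp away, with a median percentile of 44.2, and were joined to it. Another 287 had it 500 to 600 bp away, with a median percentile of 39.2, and 145 of these were in KO1-only regions. The remainder were linked to a parental summit through another summit between them. In KO1 replicate 2, the corresponding numbers were 737 summits with a median percentile of 45.8, then 291 with 44.0, of which 160 were in KO1-only regions.

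**Figure D3:**
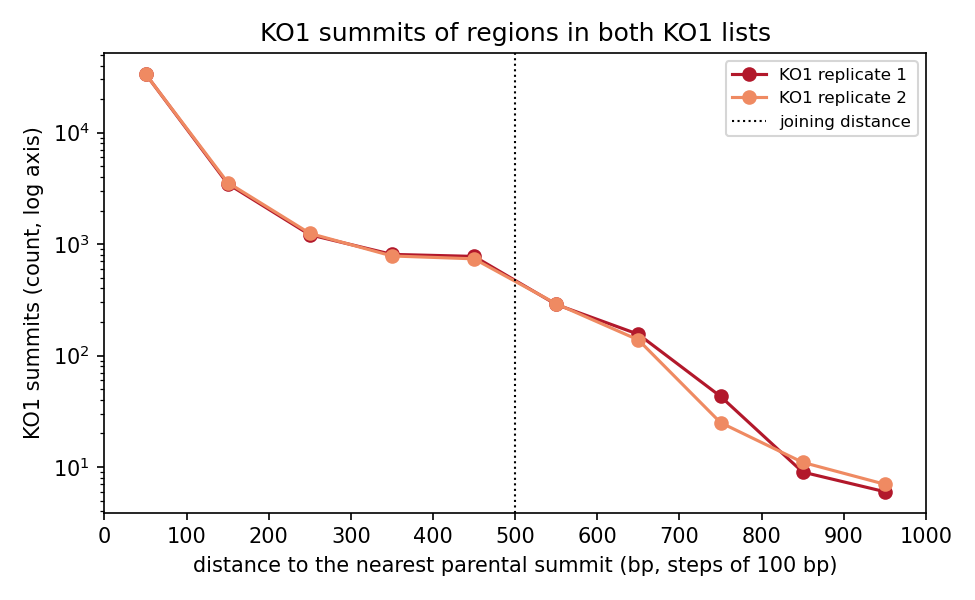
Number of KO1 summits in regions of both KO1 lists (y axis, log axis) by distance to the nearest parental summit in steps of 100 bp (x axis). Red points are KO1 replicate 1 and orange points KO1 replicate 2, and the dotted line marks the joining distance of 500 bp. The counts go from 775 and 737 at 400 to 500 bp to 287 and 291 at 500 to 600 bp and to 155 and 138 at 600 to 700 bp, and reach 6 and 7 at 900 to 1000 bp.

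Strong KO1-only regions were more often close to a parental summit than weak ones. A parental summit lay within 1 kb of 59 of the 118 KO1-only regions with a mean percentile above 75, which is 50%, and of 9 of the 358 (2.51%) with a mean percentile of at most 10. The median distance to a parental summit was 970 bp in the first group and 10079 bp in the second. The 1947 regions with no parental summit within 2 kb had medians of 18.9 in KO1 replicate 1 and 19.9 in KO1 replicate 2, and 28 of them had a mean percentile of 75 or above, out of the 118.

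The 20 strongest KO1-only regions had mean percentiles from 95.7 to 99.9 and lay on 13 chromosomes. Of these, 13 had a parental summit 511 to 689 bp away, in each case in a region of both parental lists only. The highest-ranking region was on chromosome 7 between 139366978 and 139366986, with percentiles of 99.8 in KO1 replicate 1 and 99.97 in KO1 replicate 2. Its −log10 values there were 163 and 186. The parental libraries had no summit in it, but they had summits 532 and 544 bp away, at percentiles of 97.3 and 98.7. The next, on chromosome 5 between 1327804 and 1327901, had percentiles of 99.8 and 99.9 in the KO1 libraries, and the parental summits 541 and 594 bp away were at 99.9 and 99.98. These loci were thus among the strongest of every library, with the summits of the genotypes placed apart.

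In 7 of the 20, the nearest parental summit was 1827 to 5008 bp away. On chromosome 11, the region between 12246284 and 12246337 had percentiles of 98.4 and 99.4 in the KO1 libraries, and the nearest parental summits, 2551 and 2346 bp away, were at 98.6 and 97.0. On chromosome 17, the region between 70387609 and 70387616 had percentiles of 96.6 and 98.0, and parental summits 2140 and 2126 bp away were at 98.9 and 97.2. Both of these neighbors were in no KO1 list. By contrast, the nearest parental summits of 2 regions were in regions of all 4 lists. The region on chromosome 20 between 36801933 and 36801936 had percentiles of 94.6 and 98.1 and was 5008 bp from such a region, the farthest of the 20 from any parental summit. The region on chromosome 16 between 48164011 and 48164086 had percentiles of 97.8 and 96.8 and was 2661 bp from 1 region of all 4 lists and 2799 bp from a parental summit.

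Among the 1158 KO1-only regions (46.9%) with no parental summit within 10 kb, only 20 were at percentile 50 or above in both KO1 libraries and the highest mean percentile was 82.0. The following were chosen for their rank after the values were seen. The strongest lay on chromosome 21 between 11174409 and 11174457, with percentiles of 73.6 in KO1 replicate 1 and 90.4 in KO1 replicate 2. The nearest parental summit was 585233 bp away, in a region of parental replicate 2 and KO1 replicate 1, and the nearest region of all 4 lists 4225182 bp away. The second, on chromosome 5 between 12245739 and 12245749, had percentiles of 78.0 and 82.4 and was 1109164 bp from the nearest parental summit. The third, on chromosome 20 between 12133796 and 12133803, had percentiles of 64.6 and 84.4 at a distance of 251279 bp. In each of these, the summits of the KO1 libraries were 7 to 48 bp apart.

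KO1-only regions had fewer regions of all 4 lists around them than parental-only regions or regions of all 4 lists had, except at short range. The nearest region of all 4 lists was a median of 17760 bp away (quartiles 5852 and 54096), and 36.5% had one within 10 kb. The median was 14456 bp for regions of both parental lists only, with 40.2% within 10 kb, and 12404 bp between neighboring regions of all 4 lists, with 43.4%. At short range this order did not hold, with 4.33% of KO1-only regions within 2 kb, against 3.53% and 1.42%, and 21.7% within 5 kb, against 21.3% and 22.4%. At long range, 85.1% of KO1-only regions had a region of all 4 lists within 100 kb, against 89.8% of parental-only regions and 93.9% of regions of all 4 lists. Within 500 kb on either side, a KO1-only region had a median of 15 regions of all 4 lists (quartiles 8 and 23), a parental-only region 19 (12 and 28), and a region of all 4 lists 20 others (13 and 28). No region of all 4 lists was within 500 kb of 55 KO1-only regions (2.23%). The rule itself bars distances under 500 bp, which bears on the short distances of every class. The stronger KO1-only regions were nearer to regions of all 4 lists, with medians of 7384 bp above percentile 75 and 20141 bp between percentiles 10 and 25.

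Most KO1-only regions stood alone. The next KO1-only region was a median of 273177 bp away, and 442 of the 2469 (17.9%) had another within 50 kb. Joined at that distance they formed 204 groups, of which 28 had 3 or more members and the largest had 4. Parental-only regions were closer to each other, with 27.8% within 50 kb of another and groups of up to 17. Along the order of regions found in at least 2 lists, 2080 KO1-only regions (84.2%) had no KO1-only neighbor, and the longest runs held 8, 6, 5 and 5 regions. Several runs held 4, of which the shortest in bp is described with them.

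The run of 8 lay on chromosome 1 between 50526147 and 50723208, a span of 197 kb. Both parental libraries had 0 summits in it and both KO1 libraries had 8. The rule largely fixes these counts, here and in the other runs. Members hold no parental summit, and no other region of at least 2 lists lies between them. Only a parental summit found in a single list could have lain in a run. Its percentiles ranged from 15.5 to 59.9 in KO1 replicate 1 and from 1.85 to 60.9 in KO1 replicate 2. The nearest parental summit was 363635 bp from the end of the run. With 1 Mb added on either side, the parental libraries had 13 and 12 summits and the KO1 libraries 23 and 24. The KO1 counts include the 8 summits of the run itself in each library. The 10 regions of all 4 lists in that window had mean percentiles of 64.0 and 69.8 in the parental libraries and 66.4 and 64.1 in the KO1 libraries, which overlapped.

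The run of 6 lay on chromosome 5 between 11390626 and 13351107, where the parental libraries had 0 summits and the KO1 libraries 8 and 10. It includes the second of the isolated regions named above. Another run on chromosome 5, between 9198146 and 9348594, held 4 regions in 150 kb, with 0 parental summits and 4 in each KO1 library. On chromosome 1 between 118665048 and 119488326, 5 KO1-only regions accompanied 6 and 7 KO1 summits and 0 parental ones. On the X chromosome between 78235365 and 79561713, 5 KO1-only regions accompanied 5 and 6 KO1 summits and 0 parental ones. Around this last run, the 15 regions of all 4 lists within 1 Mb were also higher in both KO1 libraries (mean percentiles 59.2 and 55.6) than in both parental libraries (47.5 and 49.4). Around the first 3 of these 4 runs, the mean difference between the genotypes at regions of all 4 lists was 0.362, -0.650 and 1.77 percentile points.

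The share of KO1 regions that were KO1-only differed between chromosomes around the 5.80% of the whole genome. It was highest on X (96 of 1207 regions in both KO1 lists, 7.95%), 8 (152 of 1974, 7.70%), 4 (155 of 2118, 7.32%), 21 (34 of 471, 7.22%) and 5 (188 of 2634, 7.14%). It was lowest on chromosome 19 (37 of 1495, 2.47%), followed by 17 (65 of 1752, 3.71%), 22 (30 of 718, 4.18%) and 20 (46 of 1100, 4.18%). Chromosomes 19 and 17 are the richest in genes, with 24.8 and 14.04 protein-coding genes per Mb in the RefSeq annotation of GRCh38. Across the 23 chromosomes, the share had a Spearman's rho of -0.757 with that density, and of -0.792 when only regions with no parental summit within 2 kb were counted. The share of parental regions that were parental-only had a rho of 0.256. The KO1-only share also had a rho of 0.587 with the median percentile difference, KO1 minus parental, of the regions of all 4 lists. Chromosomes share the same 4 libraries and are not replicates, so these values are a description. Chromosomes also differ in base composition, and whether that bears on the shares was not tested.

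**Figure D4:**
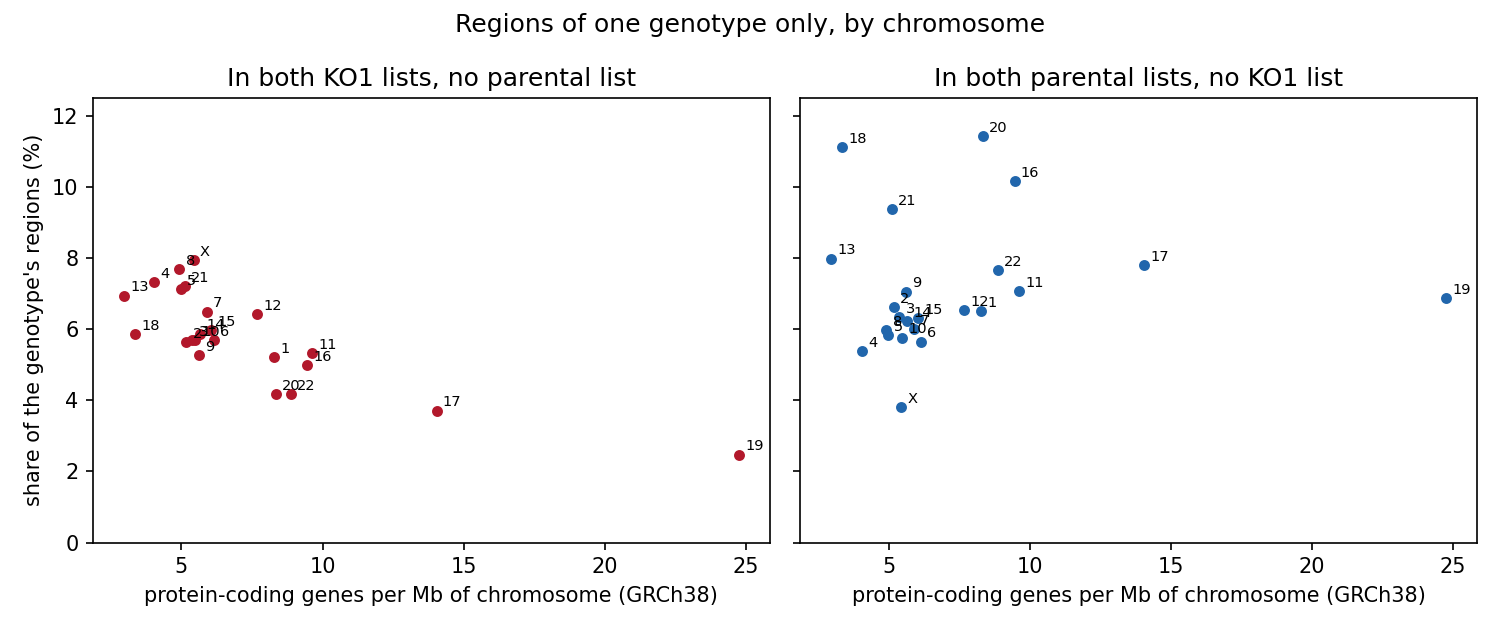
Percent of the regions of both KO1 lists that were KO1-only (left, red) and of the regions of both parental lists that were parental-only (right, blue) on each chromosome (y axis), against protein-coding genes per Mb in GRCh38 (x axis). Each point is 1 chromosome, named beside it. On the left the gene-rich chromosomes 17 and 19 are lowest, at 3.71% and 2.47%, whereas on the right chromosome 20 is highest at 11.4% and X lowest at 3.82%.

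Of 300 bins of 10 Mb with at least 30 regions, 8 held no KO1-only region, and the median share of KO1-only among all regions was 3.61% (quartiles 2.47% and 5.10%). The highest share was on chromosome 3 from 80 to 90 Mb, where 13 of 84 regions were KO1-only (15.5%) and 0 were parental-only. It was followed by chromosome 14 from 40 to 50 Mb (5 of 37, 13.5%), chromosome 8 from 50 to 60 Mb (19 of 147, 12.9%), X from 20 to 30 Mb (11 of 92, 12.0%) and chromosome 4 from 60 to 70 Mb (9 of 85, 10.6%). In these bins, 0 to 2 regions were parental-only. Of their KO1-only regions, 12 of 13, 5 of 5, 18 of 19, 9 of 11 and 8 of 9 had no parental summit within 2 kb.

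The regions of all 4 lists, which are not members but come from the same lists, tended to rank higher in KO1 cells in bins rich in KO1-only regions. Their median difference, KO1 minus parental, was 8.33 percentile points on chromosome 3 from 80 to 90 Mb, 6.27 in the bin on chromosome 14, 3.84 in that on chromosome 8, 6.23 in that on X and 0.423 in that on chromosome 4. Over the 300 bins, the share of KO1-only regions had a Spearman's rho of 0.434 with this difference (Pearson's r 0.481), and the share of parental-only regions a rho of -0.454. In the 100 bins with the highest difference, 886 of 19190 regions (4.62%) were KO1-only, against 669 of 23295 (2.87%) in the 100 bins with the lowest. Both measures come from the same lists, and bins are not independent replicates.

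**Figure D5:**
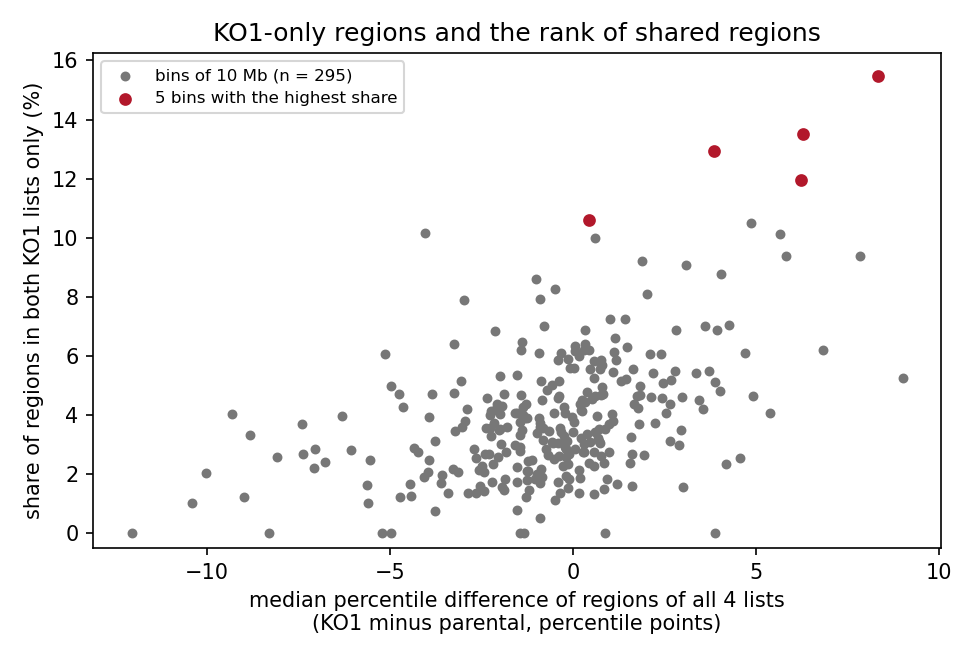
Share of all regions that were KO1-only (y axis, percent) against the median percentile difference of the regions of all 4 lists, KO1 minus parental (x axis, percentile points), for 300 bins of 10 Mb. Red points are the 5 bins with the highest share and gray points the other bins. The cloud rises from left to right, and 4 of the 5 red points lie at a difference of 3.84 or more.

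Around KO1-only regions, the genotypes differed in the whole-list rank of shared regions by less than the spread between the parental libraries. The 8167 regions of all 4 lists within 100 kb of a KO1-only region had mean percentiles of 58.3 and 63.3 in the parental libraries and 61.4 and 61.5 in the KO1 libraries. The means were 60.8 ± 3.54 for parental cells and 61.5 ± 0.0938 for KO1 cells (± SD over 2 libraries), which differed by 0.664 points. In a two-sided exact permutation test over the libraries, p was 1, where the smallest possible is 0.3333. When percentiles were taken over the regions of all 4 lists only, which removes the difference in list length, the difference was 1.47 points and both KO1 libraries lay above both parental libraries (exact permutation p = 0.3333). The 27694 regions farther away had a difference of -1.10, from 56.8 and 62.0 in the parental to 58.3 and 58.3 in the KO1 libraries. In both sets, regions ranked higher in parental replicate 2, the longest list, than in parental replicate 1. Within each library, regions near KO1-only regions ranked above those farther away, by 1.53 and 1.26 percentile points in the parental and by 3.07 and 3.26 in the KO1 libraries. The genotypes did not overlap in this contrast, which was made after the values were seen (exact permutation p = 0.3333, the smallest possible). Because the members were chosen from these same 4 lists, the ranks around them are not independent of that choice and are a description. Around parental-only regions, the same contrast was larger in the parental libraries, at 5.41 and 5.21 points, than in the KO1 libraries, at 2.19 and 2.99. Around the 1947 KO1-only regions with no parental summit within 2 kb, the contrast was 0.311 and 0.00848 in parental and 2.56 and 2.87 in KO1 cells.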

How the data were processed

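LSD1 CUT&RUN summits from 4 libraries were analyzed, 2 parental and 2 RCOR2-KO1. The 4 normal rabbit IgG libraries, 2 parental and 2 RCOR2-KO1, served the authors as input. They may thus bear on the deposited summits and −log10 values, but no list of their own was used here. The submitters' processing notes name Bowtie2 2.3.3.1, Picard, FastQC 0.11.2, MACS2 2.1.0 and hg19. The authors called peaks separately for each LSD1 library and deposited 1 summit of 1 bp per peak with its −log10 p or q value. Thresholds are not given in the sources used here. Depth is unknown, so no counting interval is given.

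Joining and tests used scipy 1.17.1, numpy 2.4.6 and pandas 2.3.3 under Python 3.11.15. Where several summits of a library fell in a region, the highest gave its percentile. The joining code was checked on simulated lists made of regions of all 4 lists, with the summits of 1 genotype removed from known regions. The removed regions were picked so that they could be recovered. The check therefore does not bear on summits just beyond the joining distance. The members and lists were chosen with earlier results of these data known. Named regions are the 20 with the highest mean KO1 percentile, the 5 longest runs and the 5 bins of 10 Mb with the highest share. Genes and sequences need a genome or annotation of hg19 and are not reported here. The alternatives were other joining distances, shorter lists, other windows, chromosomes 1 to 22, each library left out and the replicate number as a block. Ranks showed no pairing of the libraries by number: differences between replicates in parental and KO1 cells had a correlation of 0.00722 across regions of all 4 lists. Whether libraries of the same number were made together is not given in the sources used here, and this value cannot tell.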

Additional observations from a re-analysis of the deposited data

How the results depend on the processing

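The limit to members with no parental summit within 2 kb was added for percentiles, distances and neighbors after seeing the data. The number of KO1-only regions, 2469, was 2939 and 2302 at joining distances of 250 and 1000 bp, 1947 with no parental summit within 2 kb, 1445 in the upper 50% of each list and 244 at percentile 50 or above in both KO1 lists. It was 3769 without parental replicate 1, 5619 without parental replicate 2, 5997 without KO1 replicate 1 and 5942 without KO1 replicate 2, where 1 genotype rests on 1 list. The median percentile, 21.6, was 25.1 at 250 bp, 19.7 at 1000 bp, 25.5 in lists cut to the shortest, 19.5 with no parental summit within 2 kb, and 63.2 in the upper 50% by construction; without 1 library it ranged from 16.7 to 24.9.

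The share within 10 kb of a region of all 4 lists, 36.5%, was 33.1% at 250 bp, 25.3% in the upper 50%, 33.2% in lists cut to the shortest, 30.9% with no parental summit within 2 kb, 21.7% within 5 kb and 52.9% within 20 kb; without 1 library it ranged from 37.4% to 43.0%. The share within 50 kb of another KO1-only region, 17.9%, was 14.7% in the upper 50%, 15.7% with no parental summit within 2 kb, 10.9% within 25 kb and 28.9% within 100 kb, and ranged from 24.0% to 32.9% without 1 library. The difference at nearby regions of all 4 lists, 0.664 percentile points, was -0.221 within 500 kb, and from -2.03 to 2.65 without 1 library, with KO1-only regions chosen anew: -2.03 without parental replicate 1, -0.329 without KO1 replicate 1 and -0.352 without KO1 replicate 2. In the replicate block, with libraries paired by number, it was again 0.664, from pairs of 3.098 and -1.77 (exact permutation test of signs, p = 1, smallest possible 0.5). Under the other alternatives run with all libraries it stayed between 0.269 and 1.47, the latter with percentiles over regions of all 4 lists, where the genotypes no longer overlapped (exact permutation p = 0.3333, the smallest possible). Choosing the named regions by the lower of their percentiles kept 19 of the 20.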

Other observations

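The runs of 4 KO1-only regions that were longer than the one described on chromosome 5 had 0 parental summits as well, which the rule largely fixes. On chromosome 11 between 38367036 and 38836510, the KO1 libraries had 7 and 4 summits. With 1 Mb added on either side, the parental libraries had 3 and 4 summits and the KO1 libraries 12 and 10. The latter include the 7 and 4 of the run itself. The 3 regions of all 4 lists there had mean percentiles of 48.4 and 52.3 in parental and 68.2 and 74.1 in KO1 cells. On chromosome 20 between 14488839 and 14860260, each KO1 library had 4 summits, and the 10 regions of all 4 lists within 1 Mb had mean percentiles of 38.5 and 41.0 in parental and 53.0 and 47.2 in KO1 cells. On chromosome 10 between 91503961 and 91939678, the KO1 libraries had 4 and 5 summits. With 1 Mb added on either side and the run included, there were 51 and 60 parental and 59 and 64 KO1 summits. On X between 25174575 and 25959490, they had 4 and 6 summits, and the 3 regions of all 4 lists within 1 Mb overlapped between the genotypes.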
